A study of Mus musculus with 8 samples.

Results

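Contacts between points 10 kb to 1 Mb apart on the same chromosome were examined in Hi-C libraries of mouse embryonic stem cells. The deposited statistics count intrachromosomal read pairs in 38 distance bins and 4 strand orientations. The window took the bins that start at 10 kb or more and end at 1 Mb or less, with the 4 orientations summed. It held 8 of the 38 bins, 4 to each 10-fold step in distance. The rule used distance alone and no measured value, but it was set with earlier results of these data known. Hi-C was made from cells fixed in 1% formaldehyde and cut with DpnII, and the series asks how RING1B affects chromosome folding.

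All cells were E14tg2A embryonic stem cells of the 129/Ola background or lines derived from them, grown without feeder cells on gelatin in medium with serum and LIF. Wild-type cells, Ring1B+/+ (WT), gave 4 libraries. Ring1B I53A/I53A cells (I53A) gave 2 libraries and Ring1B -/- cells (KO) gave 2. The labels name the derivative lines by genotype only and describe no second clone, so genotype and line cannot be told apart. Libraries are called biological replicates in the labels, which do not say whether they were separate cultures. If they were not, the p-values measure only the spread between these samples.

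RING1B is a ubiquitin ligase subunit of the Polycomb repressive complex PRC1 and marks histone H2A at silent developmental genes. The I53A substitution impairs its ligase activity while leaving the protein in place, and PRC1 also compacts chromatin and joins distant Polycomb targets. In general, contact frequency falls with distance along the chromosome. Cohesin extrudes loops that stop at CTCF sites and so forms domains, and the decay of contacts is shallower inside such loops than beyond them.

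The window spans the lengths of many genes and of the Polycomb-bound Hox clusters. In the NCBIM37 annotation (mm9), 60.1% of 22380 protein-coding genes were between 10 kb and 1 Mb long. From the first to the last annotated gene, the Hoxa cluster covered 105.5 kb (chr6:52105366-52210874) and the Hoxb cluster 173.9 kb (chr11:96055630-96229570). The Hoxc cluster covered 115.7 kb (chr15:102751534-102867274) and the Hoxd cluster 96.8 kb (chr2:74506367-74603200). The DpnII recognition site GATC occurred 6415166 times in this assembly, with a median spacing of 261 bp. Of all spacings 170 reached 10 kb, so the window lies far above the length of nearly all fragments. The pairs are genome-wide sums over chromosomes, so the values below belong to no single locus.

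WT libraries placed 29992883 to 42588490 pairs in the window, I53A libraries 71491839 and 88304939, and KO libraries 81701972 and 92381606. Every RING1B library was thus deeper than every WT library. Libraries also differed in the share of unique pairs of the types named RU and UR in the statistics. It was 43.1% to 47.2% in 5 libraries (WT 3, WT 4, I53A 1, KO 1 and KO 2) and 25.6% to 30.6% in the other 3 (WT 1, WT 2 and I53A 2). This split crosses the genotypes, with no KO library on its low side, and results within its high side are given below as those at the high RU and UR share. I53A 1 is the only I53A library on the high side, so I53A values there rest on that library alone.

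Contact density, in pairs per bp of bin width, fell steadily across the window in every library. In the bin from 10 to 17.8 kb it was 436.7, 407.9, 331.9 and 527.2 in WT 1 to 4, 903.7 and 923.9 in I53A 1 and 2, and 1217 and 864.5 in KO 1 and 2. In the bin from 562 kb to 1 Mb it was 13.7, 14.5, 9.37 and 12.1 in WT, with 20.7 and 29.2 in I53A and 24.3 and 24.6 in KO. These densities are not scaled for depth. The ratio of the first to the last bin needs no such scaling, and it was 31.8, 28.2, 35.4 and 43.7 in WT, beside 43.6 and 31.7 in I53A and 50.2 and 35.2 in KO. KO 1 had the largest ratio and WT 2 the smallest, and the 3 groups overlapped.

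**Figure D1:**
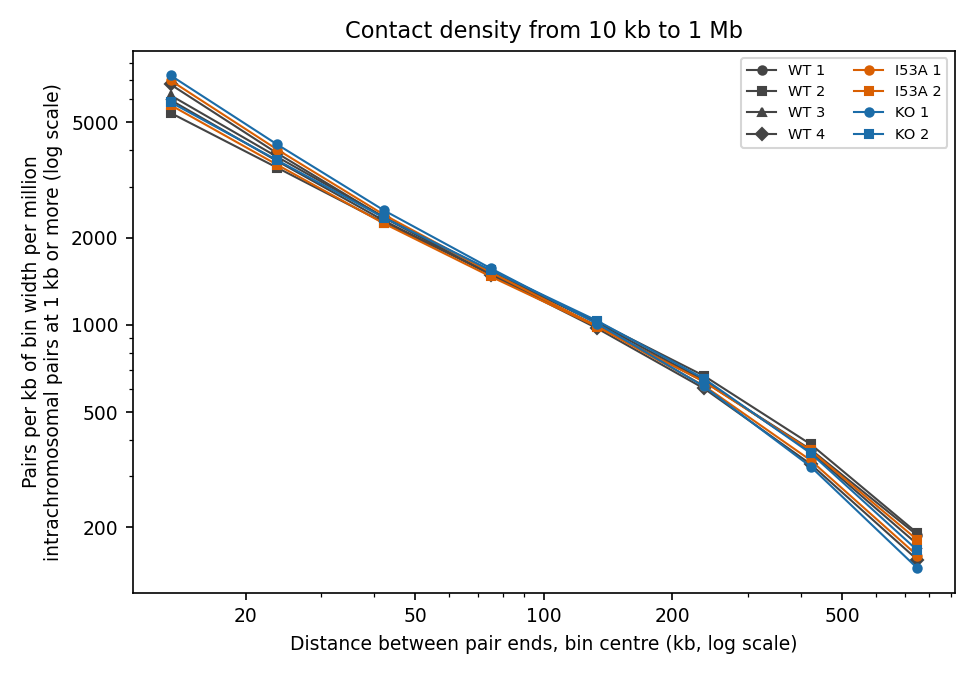
Contact density in the 8 window bins, as pairs per kb of bin width per 1e6 intrachromosomal pairs at 1 kb or more, against the bin centre in kb, with both axes logarithmic and 1 line per library. The 8 libraries lie close together, from 5389 to 7259 in the first bin and from 144.7 to 191.0 in the last.

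Bins widen with distance, so density and the number of pairs behave differently. As a share of intrachromosomal pairs at 1 kb or more, the median over the 8 libraries was 4.73% at 10 to 17.8 kb, 5.19% at 17.8 to 31.6 kb, 5.77% at 31.6 to 56.2 kb and 6.63% at 56.2 to 100 kb. It was 7.78% at 100 to 178 kb, 8.82% at 178 to 316 kb, 8.92% at 316 to 562 kb and 7.48% at 562 kb to 1 Mb. Just outside the window, the bins from 5.62 to 10 kb and from 1 to 1.78 Mb held medians of 4.14% and 5.45%. The fullest bin was 316 to 562 kb in WT 1, WT 2, WT 3 and I53A 2, and 178 to 316 kb in WT 4, I53A 1, KO 1 and KO 2. Among all bins from 1 kb upwards these were also the fullest.

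The spread between libraries was widest at the ends of the window and narrowest in its middle. The coefficient of variation over the 8 libraries was 10.5% at 10 to 17.8 kb and 9.68% at 562 kb to 1 Mb. It was 2.11% at 56.2 to 100 kb and 2.11% at 100 to 178 kb. Within WT alone it ran from 1.17% at 56.2 to 100 kb to 9.33% at 562 kb to 1 Mb. Counting error was at most 0.0622% in any bin, so the libraries differed from each other far beyond their depth.

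The 3 libraries with the most pairs at the near end of the window had the fewest at its far end, and they came from 3 genotypes. At 10 to 17.8 kb the shares were 4.65%, 4.19%, 4.82% and 5.26% in WT 1 to 4, 5.43% and 4.46% in I53A, and 5.65% and 4.57% in KO. At 562 kb to 1 Mb they were 8.23%, 8.36%, 7.66% and 6.77% in WT, with 7.0% and 7.93% in I53A and 6.33% and 7.30% in KO. WT 4, I53A 1 and KO 1 were the 3 highest libraries in the first of these bins and the 3 lowest in the second. The same 3 libraries had the most pairs at 1 to 10 kb, just below the window: 14.8% in WT 4, 14.6% in I53A 1 and 14.7% in KO 1 on the same denominator, against 8.95% to 11.4% in the other 5. The part of this difference in the window results was not tested.

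**Figure D2:**
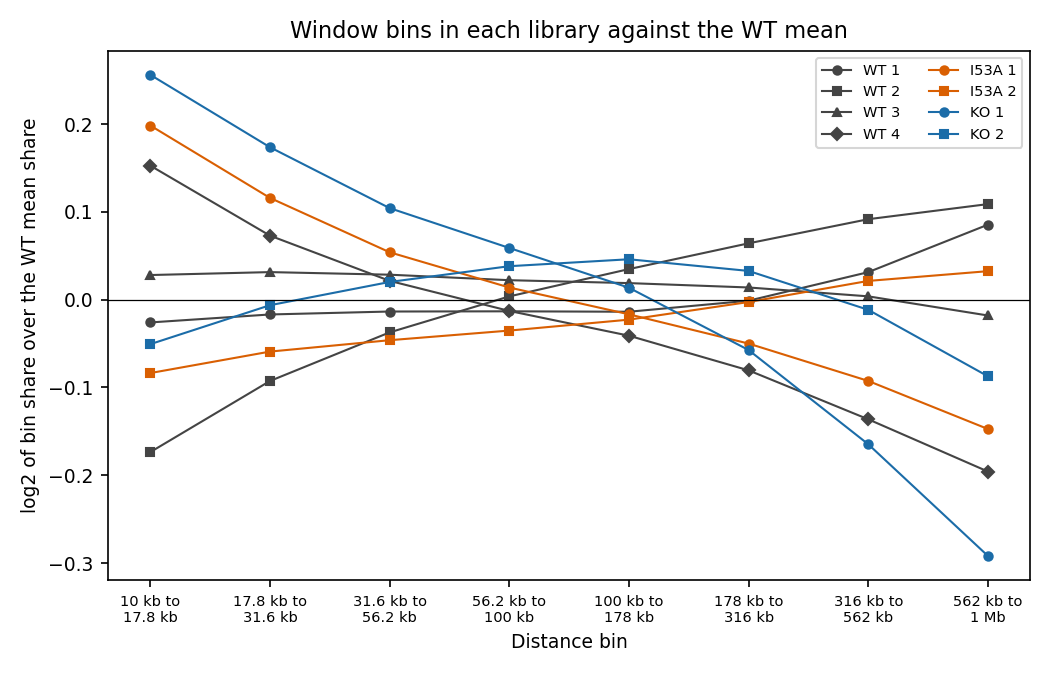
The share of each window bin in each library, relative to the WT mean on a log2 scale, by distance bin, with 1 line per library. WT 4, I53A 1 and KO 1 tilt from high at 10 to 17.8 kb (0.15, 0.20 and 0.26) to low at 562 kb to 1 Mb (-0.20, -0.15 and -0.29), and WT 2 tilts the other way (-0.17 and 0.11).

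The local slope is the change in log10 density over the change in log10 distance between neighbouring bins, and a value nearer 0 means a slower decay. In all 8 libraries the decay was slowest at the border at 100 kb, with slopes of -0.710, -0.672, -0.714 and -0.744 in WT 1 to 4, -0.746 and -0.695 in I53A, and -0.764 and -0.700 in KO. The groups overlapped there. Towards shorter distances the decay was steeper, with slopes of -0.954 to -0.757 at the border at 17.8 kb, -0.909 to -0.759 at 31.6 kb and -0.800 to -0.696 at 56.2 kb. Beyond 100 kb it steepened again, to between -0.867 and -0.746 at 178 kb and between -1.11 and -0.938 at 316 kb.

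The steepest decay in the window lay at the border at 562 kb in every library. It was -1.18, -1.23, -1.27 and -1.32 in WT, beside -1.31 and -1.24 in I53A and -1.40 and -1.34 in KO. Both KO values lay below every WT and I53A value, while I53A lay within the WT range. The drop from the slowest to the steepest slope, a measure chosen after its values were seen, was 0.473, 0.556, 0.561 and 0.577 in WT, with 0.568 and 0.540 in I53A and 0.638 and 0.640 in KO. KO was above all 6 other libraries in this measure, and no test was made of it.

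**Figure D3:**
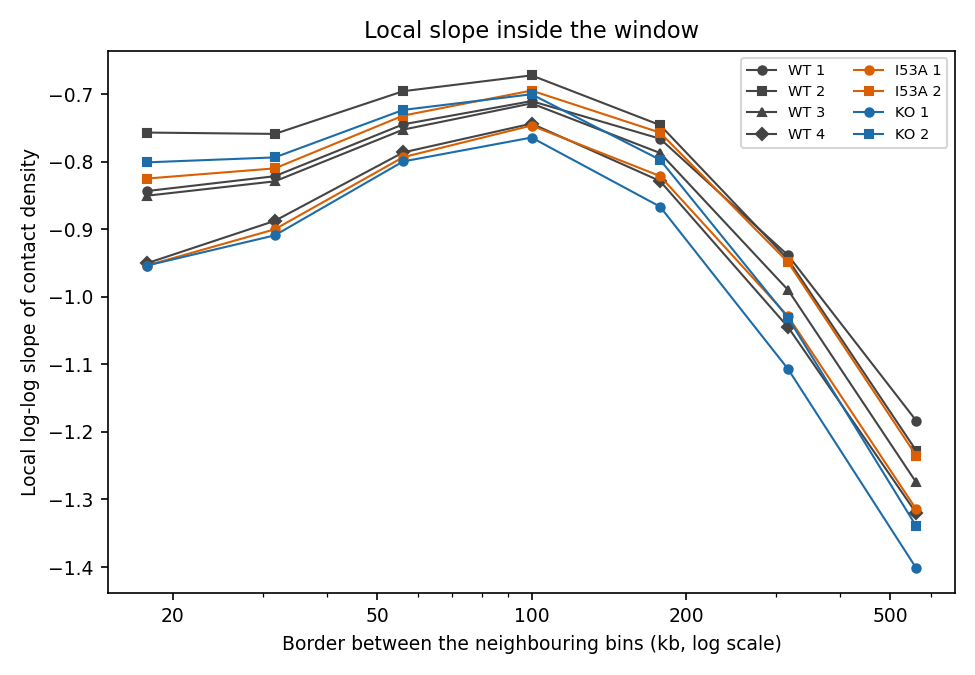
Local log-log slope of contact density at the 7 borders between neighbouring window bins, against the border in kb on a log axis, with 1 line per library. In all 8 libraries the slope is closest to 0 at 100 kb (-0.764 to -0.672) and steepest at 562 kb (-1.40 to -1.18), where both KO lines are lowest.

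The first comparison asked whether RING1B cells held more of their intrachromosomal pairs in the window. With every intrachromosomal pair in the denominator, the window held 27.8%, 31.1%, 27.7% and 31.0% in WT 1 to 4, 36.1% and 47.1% in I53A, and 41.6% and 37.2% in KO. All 4 RING1B libraries lay above all 4 WT libraries. WT libraries averaged 29.4% ± 1.88 (SD, n = 4), I53A libraries 41.6% ± 7.77 (SD, n = 2) and KO libraries 39.4% ± 3.09 (SD, n = 2). Both lines together exceeded WT by 11.1 percentage points, with a pooled SD of 3.78 and an exact two-sided permutation p of 0.0286, the smallest that 4 against 4 allow. Adjusted over the 4 window measures, this permutation test did not pass (adjusted p = 0.114). A measure at that smallest p cannot pass the adjustment unless other measures are low as well. Not passing therefore decides nothing about this measure. I53A exceeded WT by 12.2 and KO by 9.97 percentage points, each with an exact two-sided permutation p of 0.133, the lowest value possible with 2 libraries against 4. The I53A difference was 6.73 without I53A 2 and 17.7 without I53A 1. At the high RU and UR share the differences were 6.76 for I53A, from I53A 1 alone, 9.99 for KO and 8.91 for both lines together.

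The cause of this difference was not tested. The denominator of the share takes in pairs under 1 kb apart, a distance at which uncut and self-ligated fragments collect. The larger the share of such pairs, the less is left for all longer distances. Such pairs took 50.2%, 44.8%, 50.4% and 42.3% of intrachromosomal pairs in WT, beside 34.5% and 14.05% in I53A and 24.6% and 32.9% in KO. With only same-strand pairs counted, in numerator and denominator alike, both lines together exceeded WT by 0.766 percentage points (exact permutation adjusted p = 0.571, two-sided). I53A then exceeded WT by 0.665 and KO by 0.867.

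With pairs under 1 kb left out of the denominator, the window held between 53.8% and 56.3% in every library. The share was 55.8%, 56.3%, 56.0% and 53.8% in WT, with 55.2% and 54.8% in I53A and 55.1% and 55.5% in KO. WT averaged 55.5% ± 1.13 (SD, n = 4), I53A 55.0% ± 0.247 (SD, n = 2) and KO 55.3% ± 0.266 (SD, n = 2). All 4 RING1B values lay inside the WT range. Both lines together differed from WT by -0.328 percentage points, less than the pooled SD of 0.819 (exact permutation p = 0.629, two-sided). The difference was -0.466 for I53A and -0.190 for KO, and 0.274 (from I53A 1 alone) and 0.376 at the high RU and UR share, so its sign turned there. For both lines it was -0.0607 without WT 2 and -0.883 without WT 4.

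**Figure D4:**
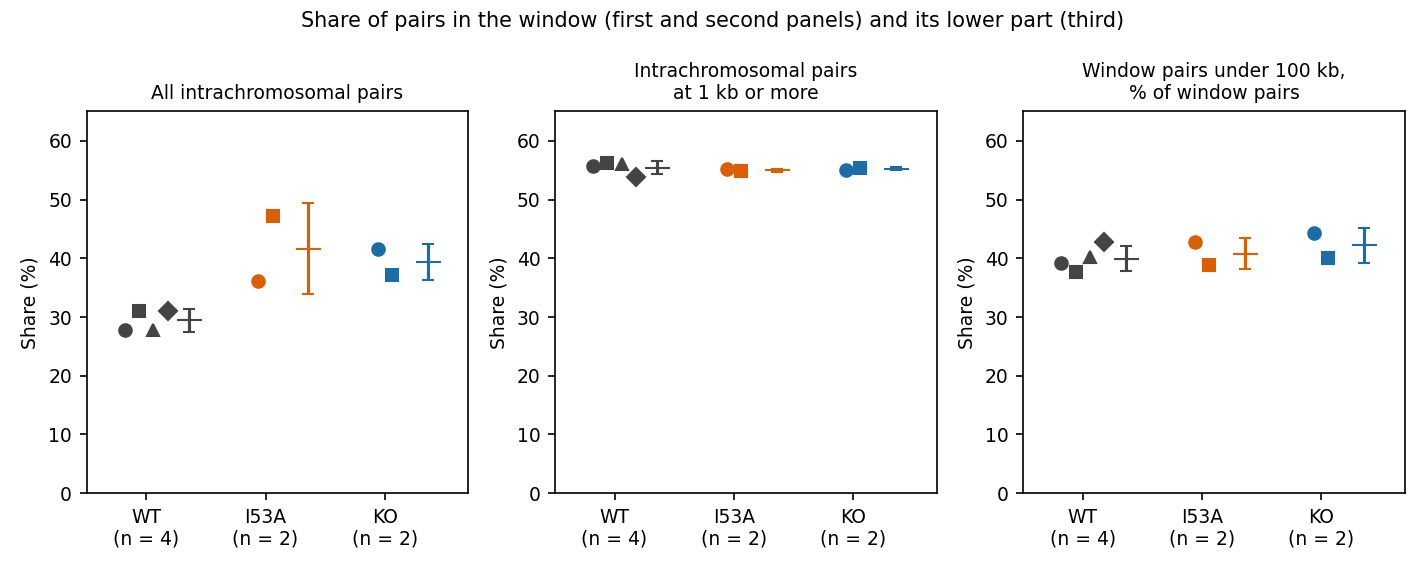
Share in percent for each library (points) with the mean and SD of each group (bars), from left to right for window pairs of all intrachromosomal pairs, window pairs of those at 1 kb or more, and pairs under 100 kb of window pairs. The RING1B libraries stand above WT in the first panel only (36.1% to 47.1% against 27.7% to 31.1%), and the groups overlap in the other panels.

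The second comparison asked whether contacts inside the window lay nearer in RING1B cells. Pairs at 10 to 100 kb, the lower 4 bins, made up 39.2%, 37.6%, 40.3% and 42.7% of window pairs in WT 1 to 4, 42.7% and 38.9% in I53A, and 44.3% and 40.1% in KO. KO 1 was the highest library, and the groups overlapped. I53A differed from WT by 0.845 and KO by 2.24 percentage points, against pooled SDs of 2.28 and 2.39 (exact permutation p = 0.933 and 0.400, two-sided). The KO difference was 0.0984 without KO 1 and 4.38 without KO 2, and 0.701 at the high RU and UR share. Both lines together differed from WT by 1.54 percentage points (exact permutation p = 0.429, two-sided), and by 0.866 at the high RU and UR share. It was lowest without KO 1, at 0.596, and highest without WT 4, at 2.45. I53A differed from KO by -1.39 (exact permutation p = 0.667, two-sided, where 2 against 2 cannot go below 0.333).

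The slope fitted over the 8 bins told of the same balance. It was -0.825, -0.794, -0.848 and -0.895 in WT, beside -0.895 and -0.821 in I53A and -0.927 and -0.844 in KO. The difference from WT was -0.0174 for I53A and -0.0450 for KO, against pooled SDs of 0.0452 and 0.0472 (exact permutation p = 0.933 and 0.400, two-sided). The KO difference was -0.00326 without KO 1, -0.0867 without KO 2 and -0.0141 at the high RU and UR share. With both lines together it was -0.0312 (exact permutation p = 0.429, two-sided), and -0.0172 at the high RU and UR share. It was -0.0127 without KO 1 and -0.0494 without WT 4, the ends of its range over libraries left out. The geometric mean distance of window pairs ran from 119.3 to 139.5 kb in WT, and was 119.4 and 134.3 kb in I53A and 113.2 and 128.9 kb in KO.

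Single bins were compared with edgeR's quasi-likelihood test on the counts of all 22 bins from 1 kb upwards that averaged at least 10 pairs. A bin was called at an adjusted p below 0.05. In I53A against WT, 0 of the 8 window bins were called, where 0 of all 22 bins (0%) were. Without adjustment 1 bin of 22, and 0 in the window, had a p under 0.05, and DESeq2 called 0 window bins. The highest window change was at 10 to 17.8 kb, with a log2 change of 0.064 ± 0.13 (SE, 95% interval -0.24 to 0.37, edgeR adjusted p = 0.864). The lowest was at 562 kb to 1 Mb, with -0.055 ± 0.10 (SE, 95% interval -0.30 to 0.19, edgeR adjusted p = 0.864). No window bin had I53A wholly outside the WT range, where 9.09% of all 22 bins did. The median log2 change was -0.015 over the window bins and -0.0024 over all bins tested.

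In KO against WT the estimates were likewise highest at the near end and lowest at the far end, without a call. Of the 8 window bins 0 were called, of all 22 bins 0 (0%), and 0 bins had an unadjusted p under 0.05 in edgeR, while DESeq2 called 0 window bins. The change was 0.11 ± 0.13 at 10 to 17.8 kb (SE, 95% interval -0.19 to 0.41, edgeR adjusted p = 0.674). At 562 kb to 1 Mb it was -0.19 ± 0.11 (SE, 95% interval -0.43 to 0.062, edgeR adjusted p = 0.661). With the RU and UR split as a term these became 0.0037 and -0.085. The estimates were positive in the 5 bins up to 178 kb and negative in the 3 beyond, with a median of 0.039 over the window bins and 0.067 over all bins tested.

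The bin from 56.2 to 100 kb was the only window bin in which KO lay wholly above WT, 1 of 8. It was also the only such bin among all 22 (4.55%), so that share is no separate background. Its shares were 6.53%, 6.60%, 6.69% and 6.53% in WT, with 6.65% and 6.43% in I53A and 6.86% and 6.76% in KO. The KO change there was 0.049 ± 0.039 (SE, edgeR adjusted p = 0.661).

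With both RING1B lines together against WT, 0 of 8 window bins and 0 of 22 bins (0%) were called, with 1 of 22 at an unadjusted p under 0.05 and 0 of those in the window, and DESeq2 called 0 window bins. The highest change was 0.088 ± 0.11 at 10 to 17.8 kb (SE, edgeR adjusted p = 0.764) and the lowest -0.12 ± 0.085 at 562 kb to 1 Mb (SE, edgeR adjusted p = 0.719). No bin, in the window or among all 22 (0%), separated all RING1B from all WT libraries.

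Between I53A and KO, 0 of 8 window bins and 0 of 22 bins (0%) were called, with 0 at an unadjusted p under 0.05 in edgeR, and DESeq2 called 0 window bins. The highest difference was 0.13 ± 0.12 at 562 kb to 1 Mb and the lowest -0.059 ± 0.045 at 56.2 to 100 kb (SE, edgeR adjusted p = 0.837 for both). In 2 of the 8 window bins, from 56.2 to 100 kb and from 100 to 178 kb, I53A lay wholly below KO. These were the only such bins among all 22 (9.09%), so that share is no separate background. In the other direction, I53A lay wholly above KO in 0 of 8 window bins, against 13.6% of all 22. At 100 to 178 kb the shares were 7.71%, 7.98%, 7.89% and 7.57% in WT, beside 7.70% and 7.66% in I53A and 7.86% and 8.04% in KO.

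Libraries of the same line differed from each other more than the line differed from WT in most bins. At 10 to 17.8 kb, I53A 1 exceeded I53A 2 by 0.28 and KO 1 exceeded KO 2 by 0.31 on the log2 scale, and the highest WT library exceeded the lowest by 0.33. At 562 kb to 1 Mb, the log2 ratio of the first to the second library was -0.18 in I53A and -0.20 in KO. The difference between the libraries of a line was larger than that between the line and WT in 7 of 8 bins for I53A and in 7 of 8 for KO. In KO the exception was the bin from 56.2 to 100 kb, with 0.021 between its libraries, and in I53A it was that from 100 to 178 kb, with 0.0061. Among the local slopes it was larger in 7 of 7 for I53A and in 5 of 7 for KO. At 316 kb the KO slopes differed from WT by -0.0895 and between libraries by -0.0759. At 562 kb these differences were -0.119 and -0.0620. A difference between single libraries varies more than one between group means, and neighbouring bins and slopes are not independent. These counts are therefore descriptive and are no test of the spread.

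Local slopes were compared with limma over all 21 slopes between neighbouring tested bins. In I53A against WT, 0 of the 7 window slopes and 0 of 21 (0%) were called, with 2 of 21 at an unadjusted p under 0.05 and 0 of those in the window. No window slope had I53A wholly outside WT, where 4.76% of all 21 did. The largest steepening was at the border at 17.8 kb, -0.0390 ± 0.0640 (SE, limma adjusted p = 0.929). All 7 window estimates were negative, so the least negative, -0.00721 ± 0.0476 at 178 kb (SE, limma adjusted p = 0.929), stands for the largest flattening.

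In KO against WT, 0 of 7 window slopes and 0 of 21 (0%) were called, with 4 of 21 at an unadjusted p under 0.05. One of these lay in the window, at the border at 562 kb. There KO differed from WT by -0.119 ± 0.0520 (SE, 95% interval -0.232 to -0.00635), with a limma adjusted p of 0.210. KO was wholly below WT in this 1 of 7 window slopes, against 9.52% of all 21. In the other direction, KO was wholly above WT in 0 of 7 window slopes, against 19% of all 21. The WT libraries at the high RU and UR share, WT 3 and WT 4, stood at -1.27 and -1.32. With that split as a term the difference was -0.0753 (limma adjusted p = 0.385), which is smaller by over 1.5 times. Over libraries left out it ran from -0.150 to -0.0881. The least negative KO estimate was -0.0167 ± 0.0481 at 56.2 kb (SE, limma adjusted p = 0.964).

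Both lines together gave 0 of 7 window slopes and 0 of 21 (0%), with 1 of 21 at an unadjusted p under 0.05 and 0 of those in the window. Estimates ran from -0.0712 ± 0.0425 at 562 kb (SE, limma adjusted p = 0.450) to -0.0164 ± 0.0377 at 100 kb (SE, limma adjusted p = 0.939). No slope, in the window or among all 21 (0%), separated all RING1B from all WT libraries.

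Between I53A and KO the slopes gave 0 calls of 7 in the window and 0 of 21 (0%), with 2 of 21 at an unadjusted p under 0.05 and 0 of those in the window. The I53A slope was above the KO slope by 0.0959 ± 0.0601 at 562 kb (SE, limma adjusted p = 0.473), and the difference was -0.0120 ± 0.0739 at 17.8 kb (SE, limma adjusted p = 0.983). I53A lay wholly above KO at the borders at 316 and 562 kb, 2 of 7 window slopes against 23.8% of all 21. It lay wholly below KO in 0 of 7 window slopes, against 19% of all 21. At 562 kb the libraries of a line differed by -0.0793 in I53A and -0.0620 in KO, and the WT libraries spanned 0.137.

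Strand orientation was compared because uncut fragments give inward pairs and self-ligated fragments outward pairs, while ligation of distant fragments gives the 4 orientations alike. Each of the 4 orientations held between 24.8% and 25.2% of every window bin in every library, near the even share of 25%. In the bin from 10 to 17.8 kb, inward minus outward pairs came to 0.392, 0.204, -0.0888 and -0.0447 percentage points in WT 1 to 4, 0.0484 and 0.441 in I53A, and 0.270 and 0.109 in KO. The exact binomial 95% interval of the inward share of these pairs, which covers counting error only, lay above an even split in 5 libraries and below it in 1. From 178 kb to 1 Mb the excess was between -0.0706 and 0.00508. Just below the window, at 5.62 to 10 kb, it was 0.0428 to 1.06, and at 1 to 1.78 kb 1.45 to 3.44. The genotypes overlapped in the first window bin.

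**Figure D5:**
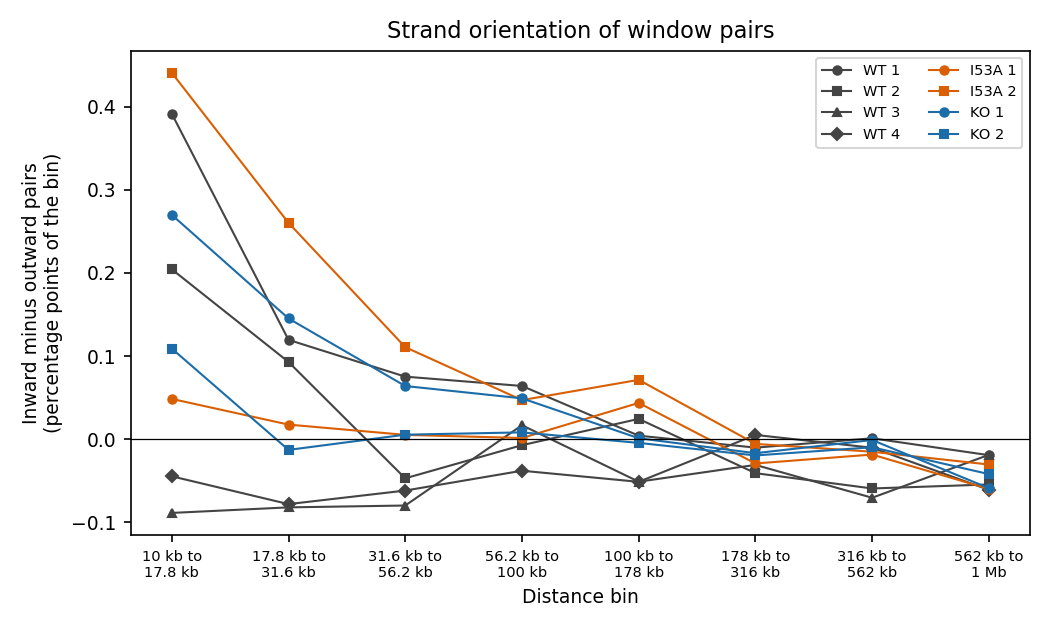
Inward minus outward pairs, in percentage points of all pairs of the bin, for the 8 window bins and 8 libraries (1 line each). The excess is at most 0.441 points, in I53A 2 at 10 to 17.8 kb, and lies within 0.0714 points of 0 in every library from 100 kb upwards.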

How the data were processed

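The authors deposited, for 8 libraries, raw counts of unique read pairs by distance bin and orientation; per the labels the genome build was mm9, and the aligner and its filters are not given in the sources used here. The 8 library files equalled the series table in all 409 statistics. Genotype columns, which were sums of libraries, were not used as samples. Pairs per bp, shares and slopes were computed with pandas 2.3.3 and numpy 2.4.6. The window slope is a least-squares fit of log10 density on log10 geometric bin centre.

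Group means were compared by exact permutation tests, two-sided, in scipy 1.17.1 or by enumeration, with Benjamini-Hochberg adjustment over 4 measures. Counts were tested in edgeR 4.0.16 (library-size scaling; the 22 bins starting at 1 kb or more whose counts averaged 10 or over) and slopes in limma 3.58.1, in R 4.3.3, with 1 mean per genotype. DESeq2 1.42.0, other scalings, denominators and filters, each library left out, and a replicate block were alternatives. Neighbouring bins and slopes are not independent. The common dispersion had a square root of 12.8%. Wilson 95% intervals of the shares extended at most 0.0133 percentage points.

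On simulated data, edgeR recovered larger bin changes, but bin changes of the smaller simulated size were only partly recovered, and raising many bins at once gave more false calls; the changes measured here were smaller still. Slope changes of both simulated sizes were recovered, but both sizes were larger than any window slope change measured here. The simulated noise was also drawn separately for each bin and each slope, while neighbouring bins and slopes here are not independent. All simulated bins shared the common dispersion, while the spread between libraries here differed from bin to bin. A count of 0 calls therefore does not show that the groups are alike.

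Replicates of a group differed over the window bins by a chi-square per degree of freedom of 3061 or more, so none was a copy. The labels do not say that replicate numbers mark a shared batch. Deviations of same-numbered libraries over 22 bins correlated at r = 0.976 between I53A and KO, 0.947 between WT 2 and I53A 2 and 0.963 between WT 2 and KO 2, but at -0.315 between WT 1 and I53A 1 and -0.333 between WT 1 and KO 1. WT 4, which has another number, correlated at 0.897 with I53A 1 and 0.892 with KO 1. The 2 libraries of a line deviate from their mean equally and oppositely by construction, so r = 0.976 rests on a single contrast per line. Because WT 1 went the other way, the numbers were not taken as pairs. WT 1 has no part in I53A against KO, so this reason does not cover that comparison. Its counts of calls with a block are given below. Whether libraries with different numbers share a batch was not tested. The members and tests were chosen with earlier results of these data known. The text gives all window bins and slopes, with full statistics for the largest change in each direction per comparison.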

Additional observations from a re-analysis of the deposited data

Results flagged for a closer look

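In the bin from 100 to 178 kb, both I53A libraries lay below the WT mean and both KO libraries above it, in the share taken out of intrachromosomal pairs at 1 kb or more. I53A minus KO was -0.269 percentage points. Both I53A libraries and KO 1 lay inside the WT range of 7.57% to 7.98%. Neither line passed against WT in edgeR, with a log2 change of -0.020 ± 0.038 for I53A (SE, adjusted p = 0.864) and 0.030 ± 0.038 for KO (SE, adjusted p = 0.674). The direct comparison of the lines gave -0.050 ± 0.044 (SE, edgeR adjusted p = 0.837) and did not pass. Among 19 window measures checked in WT, 0 had a library far from the other WT libraries.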

How the results depend on the processing

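Counts of calls differed under 2 kinds of setting. With the replicate number as a block, edgeR called 1 window bin for I53A, 3 for KO and 3 for both lines against WT, and limma called 2 slopes for KO and 2 for both lines. Under this block the KO change at 562 kb to 1 Mb was -0.29 (edgeR adjusted p = 7.2e-06). The KO slope change at 562 kb was -0.165 (limma adjusted p = 0.0241). With a replicate block in I53A and KO alone, chosen after seeing the data, 1 bin and 2 slopes differed between these lines. In the comparisons with WT the block joins libraries by a number that WT 1 does not share in its deviations, while same-numbered I53A and KO libraries deviated together (r = 0.976). With all bins holding a count, pairs under 1 kb enter the library size: edgeR then called 6 window bins for both lines, and the change at 562 kb to 1 Mb was 0.47 for I53A, 0.24 for KO and 0.36 for both lines, while 56.2 to 100 kb was 0.025 for I53A against KO. Leaving out each library gave 0 calls throughout.

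Signs of differences within the spread turned. The share at 1 kb or more became 0.274 (I53A), 0.376 (KO, also with the split as a term) and 0.342 (both lines) at the high RU and UR share. With pairs at 10 kb or more as denominator it was 0.138, 0.481 and 0.309. Without the highest bin it was 0.748 for KO and 0.285 for both lines. With interchromosomal pairs counted it was 0.480 for I53A against WT and 1.84 for I53A against KO. I53A against KO in the share of all pairs was -0.202 with same-strand pairs. At the high RU and UR share, and with the split as a term, it was -3.24, and the share under 100 kb was 0.495 and the window slope -0.00943. With that term the KO slope change at 56.2 kb was 0.00995.

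Without I53A 1, I53A against WT turned for the share under 100 kb (range over libraries left out -1.04 to 2.73), the window slope (-0.0544 to 0.0196), the bins at 10 to 17.8 kb (-0.084 to 0.20) and 562 kb to 1 Mb (-0.15 to 0.032), and the slopes at 17.8 kb (-0.103 to 0.0253) and 178 kb (-0.0394 to 0.0249, also 0.00482 without WT 2). Without KO 1, KO turned at 10 to 17.8 kb (-0.051 to 0.26) and 56.2 kb (-0.0549 to 0.0214). Without WT 2, the KO share at 1 kb or more turned (-0.745 to 0.0774). For I53A against KO, the share of all pairs turned without I53A 2 (-3.24 to 7.75). The share under 100 kb (-3.53 to 0.747) and the window slope (-0.0142 to 0.0693) turned without I53A 2 or KO 1, and the slope at 17.8 kb (-0.0883 to 0.0644) without I53A 1 or KO 2, at 0.0524 and 0.0644. The cause was not tested. A further 10 values of single bins or slopes passed only under a block or with all bins. The other 560 values kept their direction and side of the threshold, but many of them could not have changed. Exact permutation tests cannot go below 0.133 with 2 libraries against 4 or 0.333 with 2 against 2, so none of these could pass. With 4 against 4 the floor is 0.0286, and the adjustment takes it to 0.114 where only 1 measure reaches it. Leaving out a library from outside a comparison repeats the main difference. For I53A against WT, the share of all pairs stayed at 12.2 without KO 1 or KO 2. The count of 560 is therefore no measure of robustness.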
